A study of Mus musculus with 20 samples.

Results

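Ccr6 encodes a chemokine receptor, and it was 1 of the 24062 genes in the expression table of microglia from mThy1-α-synuclein mice and their wild-type littermates. It was chosen because its level differed so widely between mice, so its own values are given as a description without a test. The gene lies at chr17:8236041-8258519 on the plus strand of GRCm38.p6 (RefSeq), and its merged exons span 2320 bases (GENCODE M21). RNA was sequenced from magnetically selected microglia of single male B6D2F1/J brains, with no pooling: 6 HEM mice that overexpress human wild-type α-synuclein and 4 WT mice at 7 months, and 5 HEM and 5 WT mice at 10 months. HEM mice carry the transgene on the X chromosome under the murine Thy-1 promoter, a promoter known for driving expression in neurons, so α-synuclein is made mainly by other cells than those measured. The labels name IBA1 as the selection antigen, whereas the methods of the study name CD11b beads. Mice of the same age were handled together and the 2 ages apart, so age and handling cannot be told apart.

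CCR6 is a membrane receptor coupled to G proteins, and its main chemokine ligand is CCL20. Binding releases inhibitory G proteins, and the cell moves up the ligand gradient. CCR6 is best known on B cells, on T helper cells of type 17, on regulatory T cells and on some dendritic cells, where it guides cells to mucosal and inflamed tissue, and it has been studied in the entry of type 17 cells into the brain. It is not one of the receptors that define microglia, unlike Cx3cr1.

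At 7 months the Ccr6 level was low in every mThy1-α-synuclein mouse and high in every WT mouse. The 6 mThy1-α-synuclein mice had a lowest value of 55.8, a median of 74.2 and a highest value of 104 normalized counts (reads per gene divided by a size factor per mouse). The WT mice, replicates 1 to 4, had 7805, 8289, 4699 and 8551 normalized counts. The groups lay far apart, with the lowest WT mouse 45.1-fold above the highest mThy1-α-synuclein mouse. The means were 76.2 ± 18.2 (SD, n = 6) and 7336 ± 1785 (SD, n = 4), and the difference of the log2 means was -6.56. Within each group the mice varied little, with coefficients of variation of 23.8% and 24.3%. The low values rested on 55 to 102 reads per mouse, so the gene was detected in all 6 mice. In bulk RNA, fewer cells that express Ccr6 and less Ccr6 RNA per cell cannot be told apart.

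At 10 months the mThy1-α-synuclein mice fell into separate high and low sets. Replicates 1 to 5 had 8144, 795, 7416, 695 and 927 normalized counts, which rested on 9154, 996, 6930, 713 and 924 reads. Replicates 1 and 3 were high and replicates 2, 4 and 5 were low, with a gap of 3.00 on the log2 scale, or 7.99-fold, and no mouse between. The WT mice had 2805, 3159, 5795, 3579 and 5317 normalized counts and lay between these sets. The lowest WT mouse was 3.03-fold above the highest low mouse, and the lower of the high mice was 1.28-fold above the highest WT mouse. The group means were 3595 ± 3830 (SD, n = 5) normalized counts for mThy1-α-synuclein mice and 4131 ± 1340 (SD, n = 5) for WT mice. The log2 means, which weigh the low mice more, were 10.96 and 11.95, a difference of -0.996. That difference rests on which mice are in the group: without mThy1-α-synuclein replicate 1 it was -1.50, and without replicate 4 it was -0.62. The coefficient of variation was 107% in the mThy1-α-synuclein mice and 32.4% in the WT mice, and the largest gap between neighbouring mice inside the other 3 groups was 0.73 on the log2 scale.

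**Figure D1:**
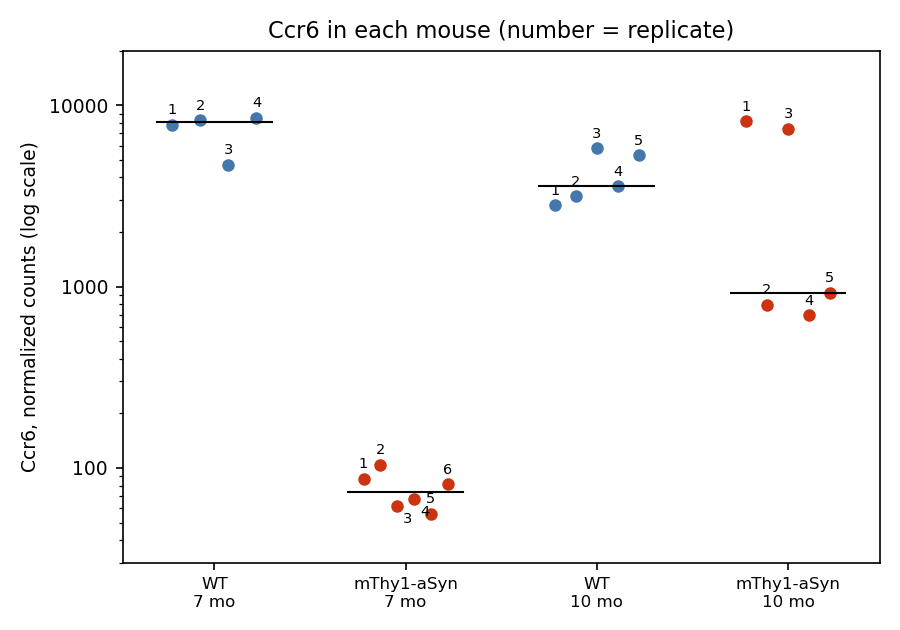
Normalized counts of Ccr6 on a log axis for each of the 20 mice by genotype and age, with the replicate number at each point and the group median as a line (WT blue, mThy1-α-synuclein red). All 7-month mThy1-α-synuclein mice lie at or below 104, and the 10-month mThy1-α-synuclein mice lie either between 695 and 927 or at 7416 and 8144.

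A description with only a low and a high state does not cover these mice, because 3 levels were seen. The low mice at 10 months were well above the low mice at 7 months: the lowest of them was 6.67-fold above the highest 7-month mThy1-α-synuclein mouse. The authors scaled the 2 ages separately, so the comparison was repeated on recovered reads scaled over all 20 mice together (CPM after trimmed mean of M values, TMM CPM), where the factor was 7.18. On that scale the 7-month mThy1-α-synuclein mice ranged from 1.08 to 2.03 TMM CPM and the 10-month mThy1-α-synuclein mice from 14.6 to 169. The 7-month WT mice ranged from 91.3 to 165 TMM CPM and the 10-month WT mice from 58.1 to 121. The ordering of group medians was thus WT at 7 months, WT at 10 months, mThy1-α-synuclein at 10 months and mThy1-α-synuclein at 7 months. The WT ranges overlapped each other, the 10-month mThy1-α-synuclein range covered that of the 10-month WT mice, and the 7-month mThy1-α-synuclein range overlapped none. Sorted over all mice, the largest gap (2.73 on the log2 scale) lay between the 6 mThy1-α-synuclein mice of 7 months and the other 14 mice, and the next (1.60) set 9 low mice apart from 11 high ones.

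Against the rest of its family, Ccr6 moved from a leading to a minor receptor. Per kilobase of exon, its median was 3469 in WT mice at 7 months, next after Cx3cr1, the fractalkine receptor of microglia, among the 18 chemokine receptors compared. In mThy1-α-synuclein mice of that age the median was 32.0 per kilobase, at rank 8 of 18. At 10 months it was 1543 per kilobase in WT mice, at rank 4, and 400 in mThy1-α-synuclein mice, at rank 7. In that last group the level per kilobase ran from 299 to 3511, so its rank differed from mouse to mouse. Among all tested genes with a known length, the Ccr6 median stood at percentile 95.8 and 24.0 in WT and mThy1-α-synuclein mice at 7 months and at percentile 90.2 and 67.9 at 10 months.

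The mice matched their labels and microglia prevailed. Thy1, whose promoter drives the transgene, averaged 919 normalized counts at 7 months and 1423 at 10 months in mThy1-α-synuclein mice, while WT mice had means of 39.2 and 17.4. Reads on genes ran from 33404096 to 77806399 per mouse, and counts could be recovered as whole reads for all 20 mice. Summed over 10 microglial markers, the level ran from 1.68e+06 to 2.23e+06 normalized counts. Neutrophil RNA was present as well, and it varied widely. At 7 months sums over 7 neutrophil markers ran from 43523 to 430977 in mThy1-α-synuclein mice and from 74652 to 279221 in WT mice. Replicate mice of a group are separate animals, so each test set a group difference against the spread between animals of the same age.

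The RefSeq table holds 2 start-site windows for Ccr6, each from 250 bases before a start to 50 bases after it, in GRCm38.p6. They are shown because the level of this gene is what sets the mice apart, and because Prr18 is the neighbour that moved with it. The first Ccr6 window, chr17:8235793-8236092 (plus strand), begins the gene as annotated. The second, chr17:8242276-8242575 (plus strand), lies inside it. The Prr18 windows are chr17:8340156-8340455 and chr17:8340489-8340788 (plus strand). Capitals mark GAGGAA (the purine-rich core bound by PU.1 and other ETS factors) and AGGTCA (a half-site of nuclear receptors, those of the ROR family included) on either strand. TATAAA, the box that positions some transcription starts, was searched as well.
Ccr6 window 1: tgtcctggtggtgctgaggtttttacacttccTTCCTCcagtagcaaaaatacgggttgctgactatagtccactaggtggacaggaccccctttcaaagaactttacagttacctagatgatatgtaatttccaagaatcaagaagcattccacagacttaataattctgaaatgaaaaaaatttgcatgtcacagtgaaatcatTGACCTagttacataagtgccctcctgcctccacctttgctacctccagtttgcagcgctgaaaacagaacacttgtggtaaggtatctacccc
Ccr6 window 2: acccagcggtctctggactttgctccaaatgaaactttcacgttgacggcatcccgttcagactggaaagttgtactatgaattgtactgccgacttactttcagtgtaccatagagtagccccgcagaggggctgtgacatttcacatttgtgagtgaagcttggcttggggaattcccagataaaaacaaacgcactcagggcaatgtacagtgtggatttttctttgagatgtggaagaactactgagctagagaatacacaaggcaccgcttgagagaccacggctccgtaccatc
Prr18 window 1: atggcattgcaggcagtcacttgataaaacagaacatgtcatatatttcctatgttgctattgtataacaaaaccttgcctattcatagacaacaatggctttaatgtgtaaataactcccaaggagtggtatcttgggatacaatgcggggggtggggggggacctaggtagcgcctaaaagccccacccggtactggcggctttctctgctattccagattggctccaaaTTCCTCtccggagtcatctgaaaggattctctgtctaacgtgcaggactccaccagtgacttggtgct
Prr18 window 2: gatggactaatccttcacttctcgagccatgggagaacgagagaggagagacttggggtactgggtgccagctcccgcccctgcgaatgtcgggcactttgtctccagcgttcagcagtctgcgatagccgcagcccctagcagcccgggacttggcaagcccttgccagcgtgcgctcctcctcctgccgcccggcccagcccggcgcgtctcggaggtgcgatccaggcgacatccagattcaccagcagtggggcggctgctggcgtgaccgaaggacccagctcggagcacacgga

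The first Ccr6 window held 1 GAGGAA match, on the minus strand 218 bases before the start, and 1 AGGTCA match, on the minus strand 44 bases before it. Its second window held neither, and no window of either gene held TATAAA. The first Prr18 window held a GAGGAA match 18 bases before its start, also on the minus strand. Such matches are common: 28.3% of the 32851 RefSeq windows held GAGGAA, 16.3% held AGGTCA and 13.6% held TATAAA. The first Ccr6 window was poor in CpG dinucleotides, with 2 in 300 bases, as in 23.3% of windows with 2 or fewer, against a median of 7. The Prr18 windows held 6 and 24, and those of Mpc1 held 39 and 18. No motif search bears on whether a factor bound these sites.

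The known ligands of CCR6 were near absent. Ccl20, its chemokine, averaged at most 1.30 normalized counts in any group and was at 0 in all 10-month mice. Defb4, a β-defensin, was listed at 0 in all 20 mice, and Defb14, another, averaged at most 0.377. None passed the filter on low values, so no comparison was made.

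Marker sums of cells that are known for CCR6 did not set both high-Ccr6 mice above all 3 low ones. The sum over 9 B cell markers was 624, 866, 669, 721 and 687 normalized counts in 10-month mThy1-α-synuclein replicates 1 to 5, so the high-Ccr6 replicates 1 and 3 held the lowest and the next lowest of the 5 sums. Across all 20 mice it ran from 524 to 994. Il17a, which defines type 17 lymphocytes, was at 0 in every mouse. Sums over 10 type 17 lymphocyte genes, most of it from genes that other cells also use, were 27962 and 24830 in replicates 1 and 3 and 29484 to 32213 in the others. T cell marker sums over 8 genes ran from 1618 to 2622 in the 10-month mThy1-α-synuclein mice and overlapped between high and low mice, at 2053 and 1982 against 1943, 1618 and 2622. Sums over 10 dendritic cell markers ran from 87251 to 94962 in the 10-month mThy1-α-synuclein mice, and over 7 neutrophil markers from 71071 to 191870. High and low mice overlapped in both. Siglech is on the dendritic and the microglial list alike, so the dendritic sum also holds RNA of microglia. Sums of 8 neuronal markers in these mice were 462, 368, 346, 375 and 221, again without a split. Of these markers Gad1, an enzyme of GABA synthesis, did divide with Ccr6, at 24.0, 14.4, 28.9, 16.6 and 16.1 normalized counts, a gap of 0.51. The sum of 10 microglial markers did divide, at 1.83e+06 and 1.84e+06 in replicates 1 and 3 and 1.90e+06 to 2.06e+06 in the others, a difference far smaller than that of Ccr6. The part of the B cell, type 17 and microglial sums in the split was not tested. At 7 months neuronal sums were 177 to 360 in mThy1-α-synuclein mice against 453 to 994 in WT mice and so moved with the Ccr6 difference there. The part of these neuronal transcripts in the 7-month difference was not tested.

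The next question was which genes divide the 10-month mThy1-α-synuclein mice as Ccr6 does. For each other tested gene the gap was taken between the highest mouse of the lower set and the lowest mouse of the higher set, on log2(value + 1), with replicates 1 and 3 in one set and 2, 4 and 5 in the other. Of 13626 genes, 40 (0.294%) had a gap of at least 1, and 131 (0.961%) had a gap of at least 0.5, 97 of them (0.712%) high with Ccr6 and 34 (0.25%) opposite. Of the 40, 25 (0.183%) were high with Ccr6 and 15 (0.11%) were low where Ccr6 was high. A gap of that size was not rare as such, since 900 other genes had one somewhere among these 5 mice and 31 had a largest gap at least as wide as that of Ccr6. Of the 40 genes, 35 stayed below 200 normalized counts in every 10-month mThy1-α-synuclein mouse, against 24.4% of all tested genes. Ccr6 therefore had few followers at its own level of expression: 8 of the 131 genes exceeded 1000 normalized counts in any of these mice, out of 6677 such genes. The highest of these 8 was Malat1, with 55360, 34292, 61263, 18563 and 33446 normalized counts in replicates 1 to 5, a gap of 0.69. Kcnq1ot1, also among them, had 1345, 608, 947, 408 and 518, a gap of 0.64. Both were named after their values were seen. These sets were defined from the measured values, so no group mean or test is given over them.

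The gene with the widest gap that was high with Ccr6 was Asphd1 (aspartate β-hydroxylase domain containing 1), although at low counts of 14.2, 2.39, 23.5, 0 and 0. Prr18, a proline-rich protein gene, had 137, 17.6, 143, 37.0 and 28.1 normalized counts, a gap of 1.86. Its high mice were the high mice of Ccr6 by a wide margin. Tbrg3 followed with 139, 35.9, 152, 25.3 and 39.1 and a gap of 1.80. Has3, a hyaluronan synthase, had 66.7, 19.1, 76.0, 15.6 and 23.1. The uncharacterised gene 4930594C11Rik had 218, 52.7, 190, 42.9 and 71.2. In Tbrg3, Has3 and 4930594C11Rik, unlike in Prr18, the high mice stood above the WT mice, whose highest values were 49.7, 36.3 and 85.8 at 10 months. The others by rule, Ephb1 (an ephrin receptor), Tbx18 (a T-box factor), Zfp811 and 1700025N23Rik, had gaps of 1.24 to 1.48.

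In the opposite direction, the widest gap was that of 4931408C20Rik, with 0, 7.18, 0, 48.7 and 12.0 normalized counts and a gap of -3.03. Its level was 184 to 405 in the 10-month WT mice, above every mThy1-α-synuclein mouse of that age (7.27% of tested genes did not overlap between the genotypes then), and the log2 difference of -5.40 passed the test (limma, adjusted p = 0.0136). The other widest gaps lay on chromosome 11: Hist3h2ba, a histone gene, 2610507I01Rik, Nlrp1c-ps, a pseudogene of the inflammasome sensor Nlrp1, and Dnah2, an axonemal dynein chain. 2610507I01Rik (chr11:59197793-59202431) had 90.7, 650, 126, 1147 and 1219 normalized counts, a gap of -2.36. Chromosome 11 held 1139 of the 13626 other tested genes. Of the 34 genes that were opposite at a gap of at least 0.5, 9 lay on chromosome 11, and 7 of those between Hist3h2ba (chr11:58948911-58949372) and Rtn4rl1 (chr11:75193993-75267769). Beside Hist3h2ba, 2610507I01Rik, Dnah2 and Nlrp1c-ps, these 7 were Nlrp1b, which overlaps Nlrp1c-ps at its end, Wscd1 and Rtn4rl1, all 3 named after their values were seen. How many tested genes lie between Hist3h2ba and Rtn4rl1 was not counted. Reads of Nlrp1b and Nlrp1c-ps may be shared between near-identical copies.

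This chromosome 11 pattern did not follow Ccr6 outside the 10-month mThy1-α-synuclein mice. Wscd1, a sialate sulfotransferase, had 20.5, 388, 52.4, 185 and 451 normalized counts in them and 270 to 427 in the WT mice of that age. At 7 months, where Ccr6 was low in all mThy1-α-synuclein mice, Wscd1 was 73.5 and 57.2 in replicates 2 and 3 and 328 to 623 in the other 4. 2610507I01Rik likewise was 127, 36.8 and 101 in replicates 2, 3 and 6 and at least 758 in the other 3, whereas all 9 WT mice had at least 667. These values vary among mThy1-α-synuclein mice of either age, without the uniformly low values of Ccr6 at 7 months.

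By chromosome, genes at the split were most frequent on 11, 17 and 12. At a gap of at least 0.5, chromosome 11 had 20 of 1139 tested genes (1.76%), chromosome 17, which holds Ccr6, 12 of 700 (1.71%), and chromosome 12 7 of 462 (1.52%). At a gap of at least 1 the shares were 0.702%, 1.0% and 1.08%. On chromosome 12 the genes included BB287469, Gm2016 and Gm2022, near-identical copies whose reads may be shared.

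**Figure D2:**
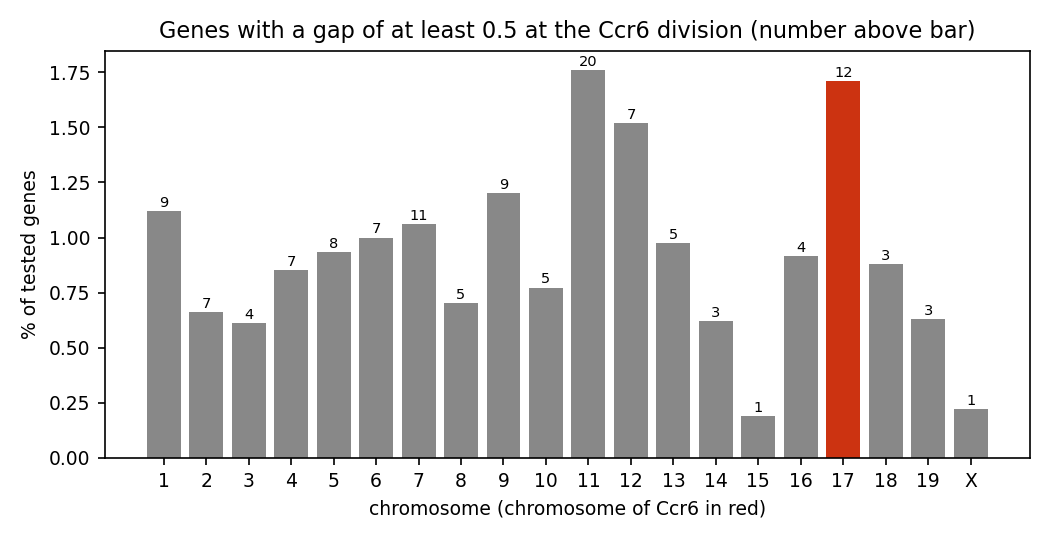
Share of tested genes on each chromosome, in percent, whose gap at the Ccr6 division of the 5 mThy1-α-synuclein mice at 10 months was at least 0.5 on the log2 scale in either direction, with the number of genes above each bar. Chromosomes 11 (1.76%) and 17 (1.71%, red) had the highest shares.

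Around Ccr6 itself, the genes that divided most clearly with it lay close by on its distal side, in either direction. Within 2 Mb of its start, 25 of the 36 genes in the table were tested. Prr18, whose start lies 104 kb away, was high with Ccr6, and the noncoding gene Gm16702, at 143 kb, was opposite (gap -1.23). At a gap of at least 0.5 Mpc1, at 47.7 kb, and Pde10a, at 289 kb, were also opposite, so 4 of the 25 genes divided, against 0.961% of all genes. Mpc1, a subunit of the mitochondrial pyruvate carrier, had 1563, 3333, 1370, 3135 and 2599 normalized counts. It was lower in both high-Ccr6 mice, and in WT mice of that age it was 1428 to 2059. Gm16702 had 48.0, 215, 62.1, 194 and 147, and Pde10a, a phosphodiesterase of cyclic nucleotides, had 16.9, 38.3, 8.56, 29.2 and 45.2. Gm16702 and Pde10a were named after their values were seen. Between Mpc1 and Prr18, 4930506C21Rik and Sft2d1 had smaller gaps of -0.27 and -0.20 in that direction. Farther out on the distal side, 1700010I14Rik at 752 kb and Qk at 1970 kb had gaps of 0. Toward the centromere, the nearest tested genes Fgfr1op, Rsph3a and Tagap had gaps of 0, -0.06 and 0. No tested gene within 2 Mb on that side reached a gap of 0.5, but Rsph3b, Tmem181a and Tmem181c-ps had gaps of -0.39, -0.34 and 0.31, wider than those of 4930506C21Rik and Sft2d1. Qk, 1700010I14Rik and Tmem181c-ps were named after their values were seen. Rsph3a and Rsph3b are similar copies, and Mpc1 overlaps 4930506C21Rik. The strand setting of the count is not stated, so those reads cannot be told apart.

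**Figure D3:**
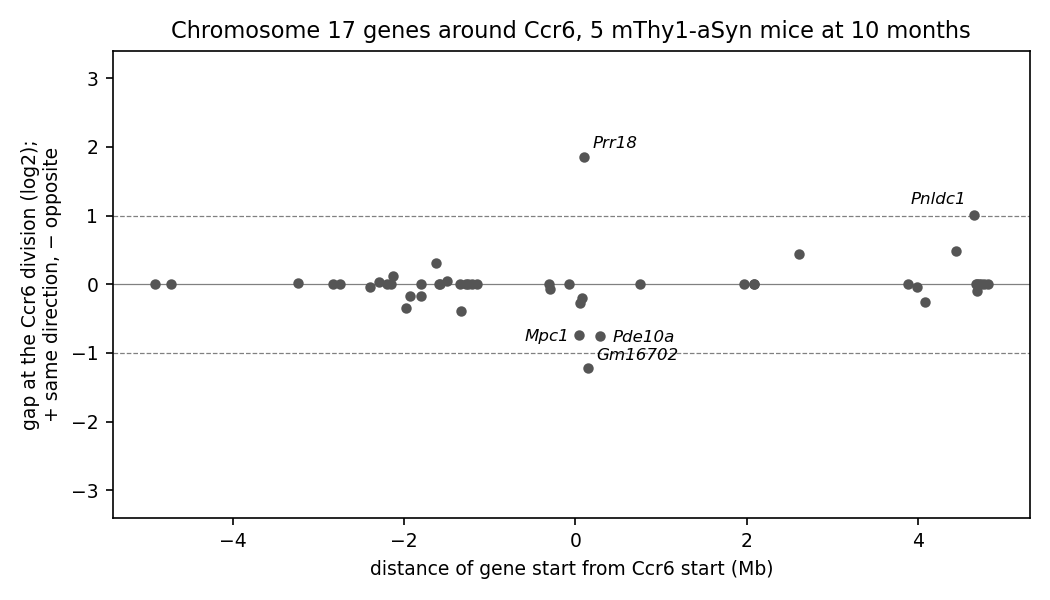
Gap at the Ccr6 division, on the log2 scale, of each of the 50 tested genes compared whose start lies within 5 Mb of the Ccr6 start, against the distance in Mb, in the 5 mThy1-α-synuclein mice at 10 months (0 where high and low mice overlapped, dashed lines at 1 and -1). The 4 genes within 2 Mb with a gap of at least 0.5 all lie from 47.7 to 289 kb past the Ccr6 start, Prr18 above 0 and the other 3 below.

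Farther on, Pnldc1, a ribonuclease gene that was named after its values were seen, was high with Ccr6 at 43.6, 11.2, 23.5, 4.87 and 1.00 normalized counts, a gap of 1.01. With Prr18 and Gm16702, 3 of 50 tested genes compared within 5 Mb had a gap of at least 1.

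Some of these neighbours also differed between genotypes at 7 months. The split was set in 10-month mice, but Ccr6 was chosen by its values in all 4 groups. The 7-month calls around it are therefore no independent check. Within 2 Mb, 7 of 25 genes passed the test (limma, adjusted p below 0.05), all higher in mThy1-α-synuclein mice, against 4.93% of all tested genes called and 2.23% called higher. The median absolute log2 difference within 2 Mb was 0.33, against 0.17 over all genes. The 7 were Pde10a, Gm16702, 4930506C21Rik, Tagap, Rsph3b, Tmem181a and Tmem181b-ps, of which Rsph3b, Tmem181a and Tmem181b-ps, like Gm16702 and Pde10a, were named after their values were seen. The calls of Tagap, Rsph3b and 4930506C21Rik were lost when any of 9, 8 and 5 mice, respectively, was left out (adjusted p up to 0.153, 0.106 and 0.0811). At 10 months 2 of 25 passed, against 7.67% of all genes (3.88% higher and 3.79% lower): Tagap, a GTPase-activating protein of T cells, was higher, and Ezr, a linker of membrane and cytoskeleton chosen after its values were seen, was lower. Their own values were 0.34 for Tagap and -0.70 for Ezr on the log2 scale, and the call of Ezr was lost when any of 7 mice was left out (adjusted p up to 0.0908).

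Pde10a at 7 months had a lowest value of 15.0, a median of 41.5 and a highest value of 67.1 normalized counts in mThy1-α-synuclein mice. The WT mice had 7.19, 9.36, 4.72 and 14.9. The highest WT mouse lay just under the lowest mThy1-α-synuclein mouse, and its log2 difference was 2.12 ± 0.48 (SE, limma, adjusted p = 0.0197). Gm16702 ranged from 89.3 to 286 against 70.1, 47.8, 118 and 40.4, so the ranges overlapped, and its log2 difference was 1.52 (limma, adjusted p = 0.0159). Pde10a lost its call without WT replicate 1 or 3, and Gm16702 lost it without WT replicate 1, 2 or 4, with adjusted p of up to 0.0649 and 0.0579. Tmem181a, a transmembrane protein gene, ranged from 998 to 1464 against 501, 452, 827 and 557 in WT mice, a log2 difference of 1.12 (limma, adjusted p = 0.00183). Its pseudogene Tmem181b-ps rose by 1.05 (limma, adjusted p = 0.000945), and reads of these copies may be shared. For Prr18 the difference was -1.41 but missed the threshold (limma, adjusted p = 0.0505), with 15.3 to 62.7 in mThy1-α-synuclein mice and 65.0 to 127 in WT mice, ranges that did not overlap, as for 7.53% of tested genes. For Mpc1 the difference was 0.57 (limma, adjusted p = 0.113), with 2412 to 4150 against 1463 to 2785.

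Within 5 Mb, 10 of the 50 genes compared passed at 7 months, against 4.93% of all genes, and 8 of them were higher in mThy1-α-synuclein mice. Park2 (parkin, a ubiquitin ligase of mitochondrial quality control), which was named after its values were seen, fell by 1.32 on the log2 scale (limma, adjusted p = 0.00183), from 440, 435, 296 and 526 normalized counts in WT mice to between 126 and 207. In the 10-month mThy1-α-synuclein mice Park2 had 428, 218, 356, 263 and 195 normalized counts, with replicates 1 and 3 again the highest. Igf2r, a receptor of insulin-like growth factor 2 also named after its values were seen, rose by 0.84 (limma, adjusted p = 0.0122). Neither gene passed at 10 months, and for each the genotype difference itself differed between the ages (limma interaction over 20 mice, adjusted p = 0.00343 and 0.00686), as for 6.6% of all tested genes.

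Over all 20 mice, which genes matched Ccr6 depended on the division used. The division of the 9 low-Ccr6 mice against the 11 others was chosen after the data were seen. There, 2 of 14029 other genes (0.0143%) did not overlap, both on chromosome 17. Prr18 went in the direction of Ccr6 with a gap of 0.05, and Tmem181a was opposite with a gap of -0.24. Tmem181a ran from 998 to 1464 in the low mice and from 305 to 843 in the rest. When only the 6 mThy1-α-synuclein mice of 7 months were set apart, 68 genes (0.485%) did not overlap and none had a gap of 1. The widest were Angptl7, an angiopoietin-like protein, at -0.23 and Id3, an inhibitor of basic helix-loop-helix factors, at 0.21, against 2.73 for Ccr6. Abi3bp, Esam, Elf1, Col27a1, St8sia6, Marcksl1 and Rusc2 followed, with gaps of 0.17 or less in size. None of these genes lies on chromosome 17. These values come from ages scaled separately.

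**Figure D4:**
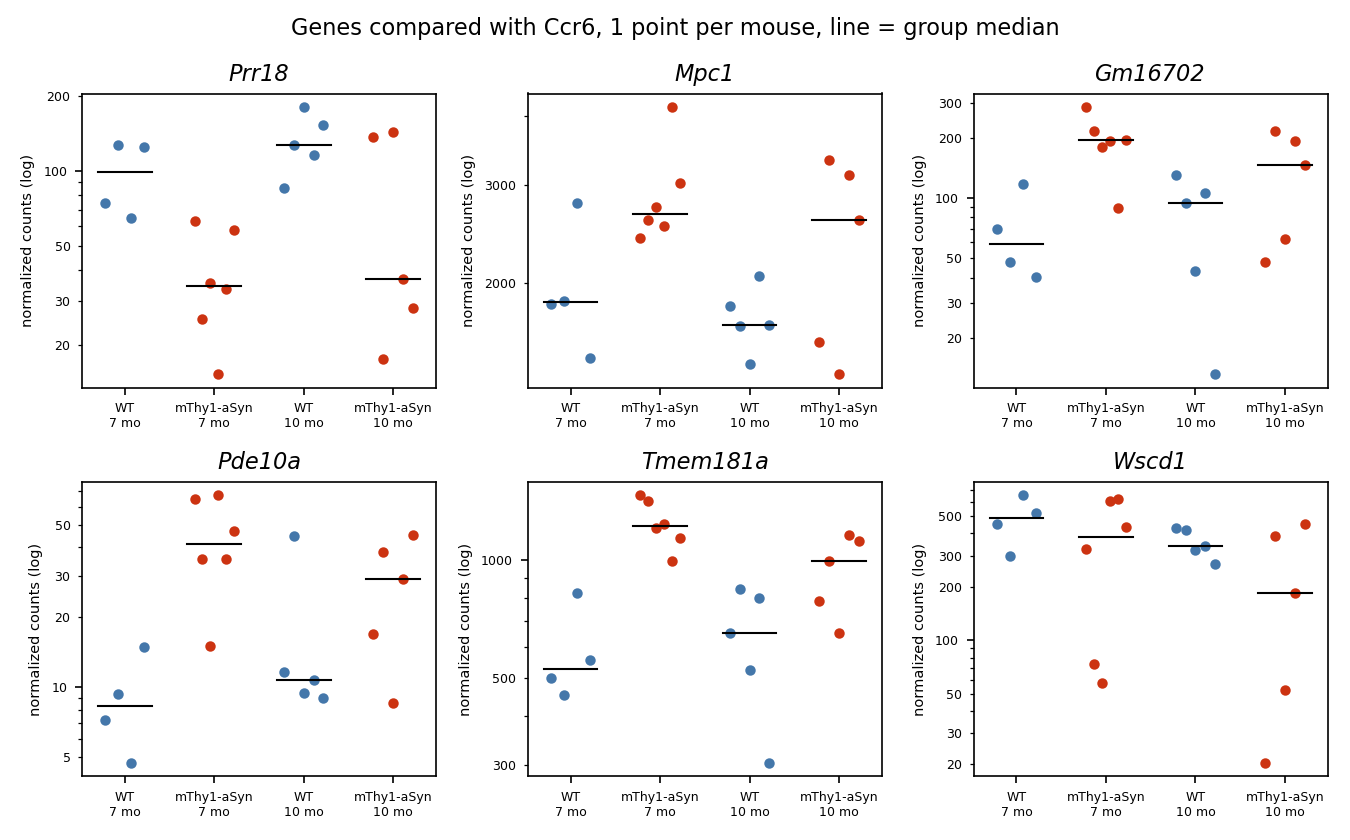
Normalized counts on log axes of Prr18, Mpc1, Gm16702, Pde10a and Tmem181a, all on chromosome 17, and of Wscd1 on chromosome 11, with 1 point per mouse in replicate order from left to right and the group median as a line. In the 10-month mThy1-α-synuclein mice the points of replicates 1 and 3 are highest for Prr18 and lowest for the other 5 genes, and Wscd1 is low in only 2 of the 6 mThy1-α-synuclein mice at 7 months.

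Genes found at the 10-month split were next compared between genotypes at 7 months. Of the 22 genes compared that were high with Ccr6 at a gap of at least 1, 18 had a negative log2 difference at 7 months, against 49.8% of all other genes. Of the 14 opposite genes, 8 were negative and 6 positive, and 2 passed as higher, Gm16702 and Crym, a thyroid hormone-binding crystallin named after its values were seen. At a gap of at least 0.5 both sets leaned negative. Of 91 genes high with Ccr6, 55 were negative and 36 positive, and of 32 opposite genes 20 were negative and 12 positive. The median log2 differences were -0.11 and -0.29, so the negative lean did not follow the direction of Ccr6. Of the 91, 2 passed as lower (Npas3 and 9030025P20Rik), against 2.7% of all genes, and none as higher. Of the 32, 4 passed as higher, against 2.23% of all genes, and 1 as lower. Gm16702 and Pde10a, both neighbours of Ccr6, were among those 4. The call of Crym was lost when any of 8 mice was left out, and that of Npas3, a neuronal transcription factor, without WT replicate 1, 2 or 3 (adjusted p up to 0.134 and 0.0931). 9030025P20Rik lies on chromosome 17 (chr17:14978864-14991577) and had 2701, 1494, 2578, 1379 and 1396 normalized counts in the 10-month mThy1-α-synuclein mice.

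Among the other chemokine receptors compared, 1 of the 14 tested passed at 7 months, against 4.93% of all genes. Ccrl2, an atypical receptor that presents chemerin, fell by 1.10 on the log2 scale (limma, adjusted p = 0.000945). At 10 months 6 of 16 passed, against 7.67% of all genes. Ccr3, the eotaxin receptor, and Cx3cr1 were higher by 0.68 and 0.21, and 4 were lower. These were Ccrl2 again at -0.62, the neutrophil receptors Cxcr1 at -3.28 and Cxcr2 at -1.48, and Cxcr4, the receptor of CXCL12, at -0.999. At 10 months the neutrophil marker sums ran lower in mThy1-α-synuclein mice (71071 to 191870) than in WT mice (153301 to 382879), with overlap. Sums over 7 monocyte markers were 16302 to 28680 against 30946 to 59386. Sums over 8 markers of border macrophages were 19002 to 24461 against 25908 to 35885. Both were lower in every mThy1-α-synuclein mouse than in any WT mouse, and 7.27% of single tested genes did not overlap then. Of these markers 2 of 7 for neutrophils, 4 of 7 for monocytes and 5 of 8 for border macrophages passed as lower, against 3.79% of all genes. The part of these cells in the differences of the receptors was not tested. The median log2 difference over the list was -0.06 at 7 months and -0.42 at 10 months, against medians of 0.000935 and -0.00257 over all genes. Ccr10 was the only one of the 16 at the split with a gap of at least 0.5, at 10.7, 6.38, 17.1, 5.85 and 6.02 normalized counts.

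Downstream of the receptor, 4 of 20 heterotrimeric G protein subunits fell at 7 months, against 2.7% of all genes called lower, and none rose. Gnb4, a β subunit, averaged 42.7 ± 35.3 (SD, n = 6) against 884 ± 405 (SD, n = 4), a log2 difference of -4.58 (limma, adjusted p = 0.00248). Gnao1, an inhibitory-type α subunit abundant in neurons, was at -1.51 (limma, adjusted p = 0.00293), and Gng10 and the stimulatory subunit Gnas were at -0.48 and -0.25. At 10 months Gnb4 was again low in all mThy1-α-synuclein mice, at 24.4 ± 9.05 against 676 ± 180 in WT mice (SD, n = 5 each), a log2 difference of -4.78 (limma, adjusted p = 9.72e-08). Of 21 members tested then, Gnb4 was the 1 that was lower and Gng3, a γ subunit, the 1 that was higher, by 1.96, against 7.67% of all genes called. Unlike Ccr6, Gnb4 stayed low in the mThy1-α-synuclein mice at 10 months. List medians were -0.07 and 0.11.

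Of 15 desensitisation genes none passed at 7 months, against 4.93% of all genes. At 10 months 3 of the 15 passed, against 7.67%. Rgs1, which shortens G protein signals of chemokine receptors, was higher by 0.74, and the related Rgs3 and Rgs18 were at -0.44 and -0.77. Of 22 effectors of chemotaxis none passed at 7 months, and 4 of the 22 passed at 10 months, against the same shares of all genes. Of these Pik3cg, the kinase coupled to G protein βγ, and Dock2 and Elmo1, which activate Rac together, were higher by 0.33, 0.26 and 0.35, and Pak1, a kinase downstream of Rac, was at -0.31. Of 10 factors known to regulate Ccr6 in lymphocytes, 2 passed at 7 months and 1 at 10 months, against 4.93% and 7.67% of all genes. Runx3 and Tbx21, both factors of T cell fate, were at -0.58 and -1.98 at 7 months, and Rora, a nuclear receptor of type 17 cells, was higher by 0.51 at 10 months. The medians of these last 3 lists ran from -0.11 to -0.01 at 7 months and from -0.30 to 0.01 at 10 months. Each list also holds members known in many pathways. None of these 4 lists had a member at the 10-month split at a gap of at least 0.5. All members named with a direction passed an adjusted p of 0.05, but the calls of Gnas, Runx3, Ccr3, Cx3cr1, Cxcr2, Gng3, Pik3cg, Dock2, Pak1 and Rora were each lost when any of 7 to 10 mice was left out, as was that of Tagap at either age, with adjusted p of up to 0.153. Tbx21 lost its call without WT replicate 2 (limma, adjusted p = 0.0549), and Rgs3 without WT replicate 2 (limma, adjusted p = 0.0501). Rgs1 lost it when any of 5 mice was left out (limma, adjusted p up to 0.0556).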

How the data were processed

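RNA was measured in 20 mice of 4 groups, taken from the sample titles. Per the methods of the study and the labels, the authors trimmed reads (Trim Galore 0.6.7), mapped them to mm10 (HISAT2 2.2.1) and assigned them to genes with featureCounts. The deposited signal values are reads of a gene over the size factor of the mouse (DESeq2 1.44.0, run by the authors). The annotation release and strand setting are not given in the sources used here. Recomputed size factors matched within each age, so the ages were scaled separately. All values up to 200 reads were whole multiples (tolerance 0.1) of what 1 read is worth, and the 20 single-mouse files equalled the table. Whole reads were recovered from them.

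Genotypes were compared within each age by limma 3.58.1 (trend, robust) on log2(value + 1) over all genes with at least 10 in at least 4 mice (7 months, 13887 genes) or 5 mice (10 months, 13627 genes), with Benjamini-Hochberg adjustment. Fold changes on this scale understate those of low genes. edgeR 4.0.16 and DESeq2 1.42.0 were run on recovered reads as alternatives, beside other pseudocounts, no filter, a replicate term and leaving out each mouse. The limma fit was tested on simulated data.

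The planned division of mice was the largest gap of Ccr6 over all 20 mice. Because that gap divides no 10-month mThy1-α-synuclein mice, the largest gap within that group was used, an alternative chosen after seeing the data. So were the 9 and 11 division, the 50-count limit and the interaction fit. A gene is at the division where the sets do not overlap, and the gap is signed by the direction of Ccr6.

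Genes were named by rule: Ccr6 and its ligands, the 10 widest gaps in its direction and the 5 opposite, the 10 widest over 20 mice, 3 tested neighbours on each side, and listed pathway and marker genes that passed. Others are marked in the text. Some genes are not reported here and were left out of the lists, the neighbours and the genes compared, though not of the fits and whole-table counts. The members and lists were chosen with earlier results of these data known. Coordinates are from RefSeq (GRCm38.p6), in which 22546 genes matched by symbol, 1351 by synonym and 165 not at all. Exon lengths are from GENCODE M21. Start-site windows are RefSeq sequences. Python 3.11.15 and R 4.3.3 were used. Methylation data of the study were not analysed here.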

Additional observations from a re-analysis of the deposited data

Results flagged for a closer look

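In 4 of 52 sets (13 genes in 4 groups), 1 mouse stood far from the others of its group by Dixon's test, where chance marks about 1 in 20. Mpc1 was 4150 normalized counts in 7-month mThy1-α-synuclein replicate 5, against 3030 in the next mouse. Pde10a was 45.0 in 10-month WT replicate 2, against 11.6. Nlrp1c-ps was 658 in 7-month mThy1-α-synuclein replicate 4, against 237, and 362 in 10-month WT replicate 2, against 184.

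For 10 named genes the genotype difference at 10 months differed from that at 7 months (limma interaction over 20 mice, adjusted p below 0.05). Since the ages were isolated apart, age and handling cannot be told apart in these differences. On chromosome 17 the change of the log2 difference from 7 to 10 months was 1.70 for Park2 and -1.20 for Igf2r. For the chemokine receptor Cxcr1 it was -3.49. Among signalling genes it was 1.64 for Gnao1, 0.55 for Gnas, 0.54 for Gng10 and 0.41 for Elmo1. It was -0.70 for St8sia6, -0.44 for Rusc2 and 1.86 for Thy1. At 7 months Gnao1 moved with the sum of neuronal markers, and the part of these in its difference was not tested.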

How the results depend on the processing

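The Ccr6 log2 differences kept their direction under every alternative run, from -6.77 to -6.48 at 7 months and from -1.50 to -0.62 at 10 months when 1 mouse was left out. The number of genes at the 10-month division moved with every limit set on it: from 40 to 131 at a gap of 0.5, 5 at a gap of 2, 22 with a pseudocount of 5, 259 with no filter and 14 with at least 50 counts in 2 mice, and from 91 to 145 with 1 of the 5 mice left out, where fewer mice have to be divided. Within 2 Mb, the 2 neighbours became 4 at a gap of 0.5, 0 at a gap of 2 and 3 within 5 Mb. Over 20 mice the count at a gap of 1 stayed 0. DESeq2 called 1159 genes at 7 months and 1677 at 10 months, against 684 and 1045 with limma, and leaving out 1 mouse gave 280 (without WT replicate 1) to 860 and 497 (without WT replicate 2) to 1235. Of 49 calls of named genes 22 held under all 16 alternatives, and none changed direction. Elf1, Marcksl1, 4930506C21Rik and Abi3bp at 7 months lost theirs without WT replicate 1, the first 3 of these also without other mice (adjusted p up to 0.104), and Rsph3b when any of 8 mice was left out (adjusted p up to 0.106).

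Replicate numbers are shared between genotypes, and deviations of same-numbered mice correlated between -0.13 and 0.10. Correlations this near 0, over few mice, cannot exclude that the numbers pair mice. With the replicate block 414 genes were called at 7 months and 916 at 10 months, and 16 of the 49 named calls were lost.

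Counts at the low end limit what can be seen, since most genes at the division rest on few reads, and the 5 mice of 1 group allow no test of it.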
